A study of Mus musculus with 2 samples.

Results

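The coding spans of 313 genes carried at least 2-fold more DNase I signal in IL-6-treated M1 cells than in untreated M1 cells. These were 1.69% of the 18472 genes that could be compared, out of 22575 genes on chromosomes 1 to 19 and X. The 313 genes were chosen by this ratio, so their signal in the 2 libraries is given as a description and no test is made of it. Each gene was represented by its transcript with the longest coding span, the stretch from start to stop codon. A gene was compared when its summed signal was above 21 in either library, and it was selected when the IL-6 sum plus 0.5 was at least 2 times the M1 sum plus 0.5. In the opposite direction, 2477 genes (13.4%) were at least 2-fold lower. Because the selection used the same contrast, nothing is read from the share of 1.69%.

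M1 is a line of murine myeloid leukemia cells. Its cells divide as immature progenitors, and the cytokine IL-6 turns them toward macrophages. One group was untreated M1 cells and the other was M1 cells kept in IL-6 for 4 to 5 days. Both were of passages 15 to 18, both were grown in RPMI medium with horse serum, and each gave 1 library. With 1 library per condition, a difference has no replicate check and the treatment cannot be told apart from any other difference between the cultures, digestions or libraries.

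DNase I cuts DNA most readily where nucleosomes are absent or loosely held, above all at active promoters and enhancers. In DHS-seq the short fragments between a pair of nearby cuts are sequenced, so open sites give sharp peaks and closed chromatin gives a low, even background. Genes for olfactory receptors, caseins, keratins, cornified envelope proteins or defensins are used in a few specialized tissues and are silent in most blood cells. Their promoters are mostly poor in CpG dinucleotides, whereas genes used in every cell and many regulators of development have CpG-rich promoters. In a bulk library, signal in fewer cells and less signal per cell cannot be told apart.

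The sequence around the selected genes differed from that of other genes, so examples are shown first. Stretches of 250 bases that lie directly upstream of an annotated start site and 1 coding sequence of 300 bases are printed 5′ to 3′ on the strand of the gene, from the NCBIM37 genome with GENCODE M1 start sites. Capitals mark CG dinucleotides and TATAAA, the core of the TATA box that positions the start of transcription at many tissue-specific genes. Csn2 (chr5:88128447-88128696, minus strand), Lor (chr3:91887065-91887314, minus strand), Lilrb4 (chr10:51200196-51200445, plus strand) and Ccl2 (chr11:81848823-81849072, plus strand) show the CpG-poor kind that made up most of the selected genes. The coding span used for Lilrb4 begins at the same base as that of its relative Gp49a. The Lilrb4 stretch therefore lies upstream of both. Neurog1 (chr13:56353525-56353774, minus strand) shows the CpG-rich exception. Krtap4-16 (chr11:99712587-99712886, minus strand) shows the start of a coding sequence that fits in a single window. These genes were picked as examples after their values were seen.
Csn2: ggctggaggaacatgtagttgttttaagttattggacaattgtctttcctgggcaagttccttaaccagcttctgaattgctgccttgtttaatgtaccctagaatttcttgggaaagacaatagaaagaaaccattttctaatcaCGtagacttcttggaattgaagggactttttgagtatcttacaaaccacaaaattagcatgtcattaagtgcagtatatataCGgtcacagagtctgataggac
Lor: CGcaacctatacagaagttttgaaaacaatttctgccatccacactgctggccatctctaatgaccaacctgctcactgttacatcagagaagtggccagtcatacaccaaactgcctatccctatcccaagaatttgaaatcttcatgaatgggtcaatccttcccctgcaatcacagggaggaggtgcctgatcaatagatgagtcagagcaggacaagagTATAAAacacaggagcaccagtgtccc
Lilrb4: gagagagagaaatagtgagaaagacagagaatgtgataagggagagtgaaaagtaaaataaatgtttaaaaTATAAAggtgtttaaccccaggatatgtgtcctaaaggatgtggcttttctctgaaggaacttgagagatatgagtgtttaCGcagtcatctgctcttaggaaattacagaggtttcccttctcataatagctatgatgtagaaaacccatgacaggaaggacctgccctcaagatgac
Ccl2: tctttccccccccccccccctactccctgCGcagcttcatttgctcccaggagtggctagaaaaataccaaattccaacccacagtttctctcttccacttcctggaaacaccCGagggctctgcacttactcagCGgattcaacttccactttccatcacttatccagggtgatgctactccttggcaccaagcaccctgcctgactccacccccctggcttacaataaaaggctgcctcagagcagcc
Neurog1: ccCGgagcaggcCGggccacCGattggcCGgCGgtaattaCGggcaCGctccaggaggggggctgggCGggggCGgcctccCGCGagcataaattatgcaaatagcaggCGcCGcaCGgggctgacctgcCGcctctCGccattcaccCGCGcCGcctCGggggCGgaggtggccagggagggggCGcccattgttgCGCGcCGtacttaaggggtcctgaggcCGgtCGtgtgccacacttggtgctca
Krtap4-16: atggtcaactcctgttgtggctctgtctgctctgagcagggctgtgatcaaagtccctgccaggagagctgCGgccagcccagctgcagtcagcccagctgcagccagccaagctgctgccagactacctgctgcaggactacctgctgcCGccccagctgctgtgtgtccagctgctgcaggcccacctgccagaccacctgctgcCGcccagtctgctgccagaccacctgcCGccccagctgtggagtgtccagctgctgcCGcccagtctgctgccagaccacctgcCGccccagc

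The 250 bases held 2 CG dinucleotides for Csn2, 1 for Lor, 1 for Lilrb4 and 3 for Ccl2. The same length held 27 for Neurog1. TATAAA occurred once in the Lor stretch, close to the start site, and once in the Lilrb4 stretch, nearer the far end. A match of letters is not by itself a TATA box. The letters are the reference genome and not reads of these libraries.

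The deposited values are means over windows of 700 bp that the coding span touches, and multiplying a mean by its windows gave whole reads in both libraries. A read counted 1.0 in M1 cells and 1.03816 in IL-6-treated cells, where reads are therefore called scaled. Over non-overlapping genes the M1 library held 9035308 reads, or 7.56 per window, and the IL-6 library held 8493822 reads, or 7.11 per window. As a check of the cell type, 12 macrophage genes and 10 myeloid progenitor genes were all above the minimum in at least 1 library, and none was among the 313. At a share of 1.69%, 0 of so few genes says nothing particular about them. A log2 ratio above 0 was found for 4 of the 12 macrophage genes (median -0.46) and 2 of the 10 progenitor genes (median -0.67). Csf1r, the receptor for the macrophage growth factor, had 943 reads in M1 cells and 534 scaled reads in IL-6-treated cells. Prtn3, a protease of the granules of immature myeloid cells, had 309 and 115. Kit, a receptor of immature cells, was 1 of the 2 progenitor genes above 0, with 467 and 621.

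The 313 genes started from little signal in untreated cells. Their M1 sums ran from 3 to 136 reads with a median of 15, and their IL-6 sums ran from 21.8 to 275 scaled reads with a median of 36.3. The median log2 ratio was 1.20, against 0.03 over all genes compared. Per window, the median was 3.33 reads in M1 cells, at the 10.0 percentile of the genes compared. In IL-6-treated cells it was 8.65 scaled reads per window, at the 45.2 percentile. The M1 level of 298 of the 313 genes was below the median of all genes compared, which was 9.33 reads per window. These genes lay near the bottom of the range in M1 cells and close to the middle of it in IL-6-treated cells. Both ranks come from the values used for the selection, which favors a low M1 sum and a high IL-6 sum, so nothing is concluded from them. The 2477 genes that were at least 2-fold lower had a median of 39.5 reads per window in M1 cells and 14.5 scaled reads per window in IL-6-treated cells.

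**Figure D1:**
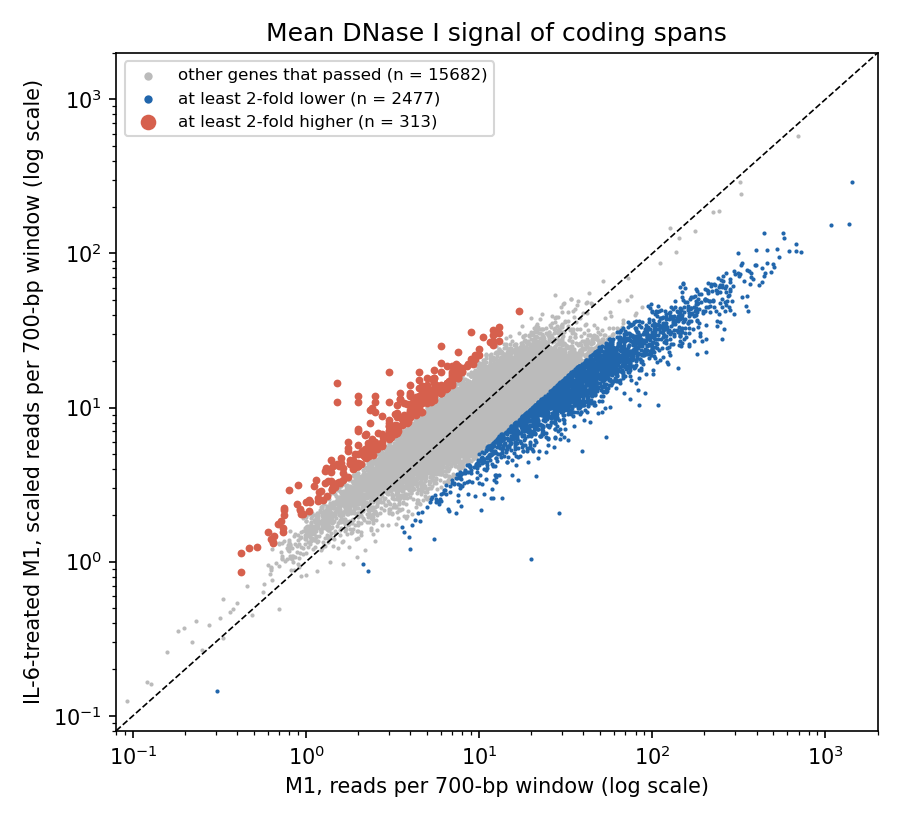
Mean signal per 700-bp window of the coding span in untreated M1 cells (horizontal, reads, log scale) and in IL-6-treated M1 cells (vertical, scaled reads, log scale), 1 point per gene. Red points are the 313 genes at least 2-fold higher, blue points the 2477 genes at least 2-fold lower, grey points the other genes compared, and the dashed line marks equal signal. Most red points sit at the lower left, around a median of 3.33 reads per window in M1 cells, and the blue points extend to the upper right. 2 genes lie outside the axes.

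Counting error is wide at this depth. The M1 library had 6471 reads in the 313 genes and the IL-6 library had 14646, and 160 of them had at least 50 reads over both libraries. The 95% Clopper-Pearson interval of the ratio had a lower bound above 1 for 302 of the 313 genes, and the lowest bound was 0.965, for Csn2. These intervals cover counting error only, since reads without molecular identifiers are not independent molecules, and they make no allowance for the choice of genes by their ratio. A sum above 21 was reached only in IL-6-treated cells by 219 genes (70.0%), and such genes could enter the comparison only by being higher there.

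Values close to the threshold show how fine the selection is. Just inside it, Gm10326 and Gm5062 each had 49 reads in M1 cells and 98.6 scaled reads in IL-6-treated cells. Gbp8, of the guanylate-binding proteins of interferon responses, had 65 and 131. Just outside it, Camk2n1 and Olfr455 each had 20 reads and 40.5 scaled reads, and Rp1l1 had 167 and 334. All of these ratios round to 2.00. The shortest transcript of Gm10326 held no read in either library, which gives a log2 ratio of 0 without measuring a change.

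The selected genes had short coding spans. Their spans touched a median of 5 windows (quartiles 3 and 9), while the genes compared touched a median of 24 (quartiles 9 and 60). At most 3 windows were touched by 127 of the 313 genes (40.6%), against 9.97% of the genes compared. Above 50 windows lay 5 genes (1.60%), against 29.1%. Of the genes compared with spans of 2 to 3 windows, 121 of 1688 (7.17%) were selected. The share fell step by step with length beyond that, to 2 of 2819 (0.0709%) for spans above 100 windows. Spans of 1 window had 6 of 154 genes selected (3.90%).

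**Figure D2:**
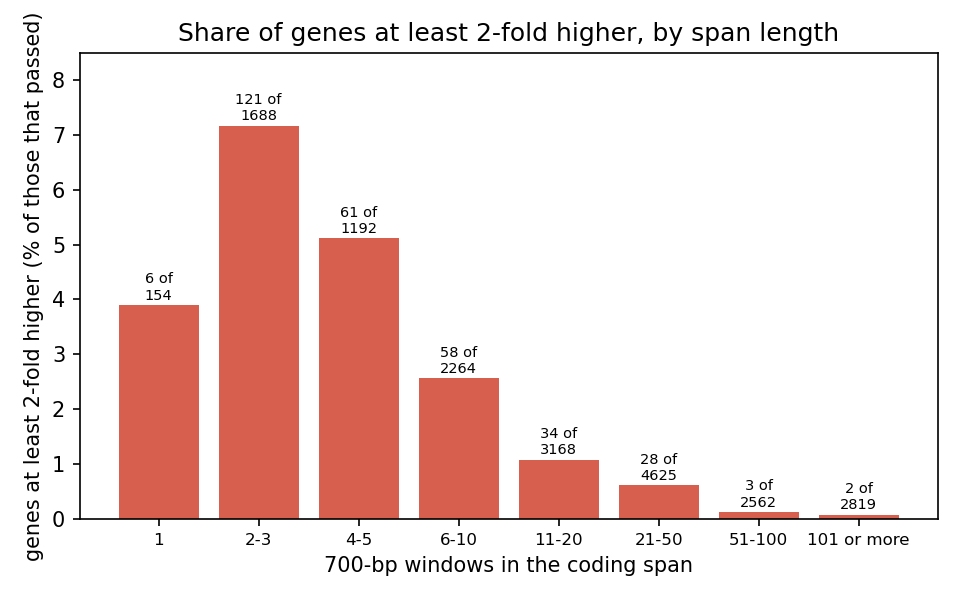
Share of the compared genes that were at least 2-fold higher after IL-6 (vertical, percent) by the number of 700-bp windows in the coding span (horizontal). The numbers over the bars give selected genes of compared genes, and the share is highest, at 7.17%, for spans of 2 to 3 windows.

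The number of reads went with this pattern. Among genes with 30 to 49 reads over both libraries 141 of 745 (18.9%) were selected, among those with 100 to 199 reads 39 of 2219 (1.76%), and among those with 400 or more reads 1 of 10353. Short spans hold few reads, and a ratio of 2 is reached more easily by counting error at low sums. The share of the selection that comes from counting error was not tested.

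The longest selected spans held few reads per length. Rps6ka6, a kinase of the ribosomal S6 kinase family on chromosome X, touched 140 windows with 59 reads in M1 cells and 119 scaled reads in IL-6-treated cells. Hdx, a homeobox gene near it on chromosome X, touched 136 windows with 85 and 191. Both gained about the same factor as the short genes, with log2 ratios of 1.01 and 1.16, from 0.421 and 0.625 reads per window in M1 cells. With the shortest transcript of Rps6ka6 its log2 ratio was 0.48, below the threshold.

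The selected gene with the most reads was Tmprss11e, a serine protease of epithelial surfaces at chr5:87136298-87174783. It had 136 reads in M1 cells and 275 scaled reads in IL-6-treated cells, a ratio of 2.02 (interval 1.64 to 2.51). Defb30, a beta-defensin at chr14:63654769-63668659, had 111 and 236, a ratio of 2.12 (1.68 to 2.69). Hapln1, which links hyaluronan to proteoglycans in cartilage, had 80 and 190, a ratio of 2.37 (1.82 to 3.13). The selection also took in the sperm lysozyme gene Lyzl1 with 77 and 159, the receptor kinase Ltk with 72 and 154, and the epidermal cadherin Dsg1a with 62 and 129. Gdf5, a growth factor of joints, had 43 and 106. Ints12, a subunit of the Integrator complex that processes small nuclear RNAs, had 64 and 131, and its promoter was CpG-rich.

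Among genes with at least 50 reads the largest ratio was that of Shisa3, an inhibitor of Wnt and FGF receptors, with 12 reads in M1 cells and 49.8 scaled reads in IL-6-treated cells, a ratio of 4.03 (2.17 to 8.59). Ankrd7 followed with 18 and 63.3, a ratio of 3.45 (2.05 to 6.33). B3galnt1, a glycosyltransferase, had 18 and 58.1, a ratio of 3.17. These intervals overlap each other widely, so the order of the leading genes is not resolved. Tlr3, the endosomal receptor for double-stranded RNA, had 13 and 40.5, a ratio of 3.04 (1.63 to 6.36). Msgn1, a transcription factor of the early mesoderm, had 15 and 45.7, and Zfp57, which guards imprinted DNA methylation, had 20 and 60.2. Taar2, a trace amine receptor of the nose, also had 20 and 60.2. The remaining 3 of the leading 10 were Pabpc6 (ratio 2.95), Akap17b (2.91) and the liver enzyme gene Cyp2a5 (2.90). With the shortest transcript of each gene, the log2 ratio of Zfp57 went from 1.57 to 0.26 and that of Cyp2a5 from 1.54 to 0.52, so that neither was at least 2-fold higher. Ratios above 4.03 came from fewer than 50 reads, as for A830073O21Rik with 3 reads in M1 cells and 29.1 scaled reads in IL-6-treated cells, a ratio of 8.45 (2.99 to 49.8).

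Sorted by name, the largest class was a mixed one of 144 named genes, 1.00% of the 14335 of its kind that were compared. Predicted genes (Gm) gave 42 of 677 (6.20%) and RIKEN clones gave 32 of 1180 (2.71%). Olfactory receptors gave 35 of 218 (16.1%), vomeronasal receptors 8 of 96 (8.33%) and trace amine or taste receptors 3 of 10. Defensins gave 7 of 32 (21.9%). Small proline-rich and late cornified envelope genes gave 4 of the 34 in the table, of which 5 could be compared, and all 4 could be compared only because of their IL-6 sum. Against these stands the share of 1.69% over all compared genes. Genes below the minimum are left out of these shares. Over the whole table the selected were 42 of 2155 predicted genes, 32 of 1439 RIKEN clones and 35 of 1113 olfactory receptors. They were 8 of 330 vomeronasal receptors, 3 of 53 trace amine or taste receptors and 7 of 53 defensins. Beside these stand 313 of all 22575 genes. Of 72 histone genes 0 were selected and 65 were at least 2-fold lower, and of 366 solute carrier genes 0 were selected. The 1 selected gene among 93 whose symbols begin like ribosomal protein genes was Rps6ka6, which is a kinase. How the authors placed reads that match several near-identical copies is not given in the sources used here, so values of single olfactory, vomeronasal, defensin and predicted genes are uncertain.

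The olfactory receptor genes have their whole coding sequence in 1 exon, and each is used by a small set of neurons in the nose. All 35 selected spans touched 4 windows or fewer, with 3 to 26 reads in M1 cells and 21.8 to 57.1 scaled reads in IL-6-treated cells. Olfr282 on chromosome 15 had the most, with 26 reads and 57.1 scaled reads. Olfr556 on chromosome 7 had 23 and 52.9, and Olfr1440 on chromosome 19 had the fewest M1 reads, 3, against 21.8. For spans of 2 to 3 windows the class was also compared at equal length. There 33 of 205 olfactory receptors (16.1%) were selected and 88 of 1483 other genes (5.93%). Of all genes of that length in the table, below the minimum or not, the shares were 33 of 1095 (3.01%) and 88 of 3211 (2.74%). Most olfactory receptors had too few reads to be compared, and the gap between the classes nearly closed once they were counted.

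The vomeronasal receptors, which sense pheromones, had long spans with sparse reads. Vmn2r20 touched 48 windows with 63 reads in M1 cells and 129 scaled reads in IL-6-treated cells, and Vmn2r97 touched 49 windows with 36 and 75.8. The trace amine receptors Taar1, Taar2 and Taar9 lie together on chromosome 10. Taar1 had 9 and 22.8, and Taar9 had 8 and 24.9.

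Most of the selected genes stood alone, and some lay close together. With a gap of at most 500 kb between spans, 171 of the 313 genes stood alone, 56 formed pairs and 86 (27.5%) fell into 21 clusters of 3 or more. The number of clusters was 8 with a gap of 100 kb, 7 with 5 added to each sum and 3 with a minimum sum of 50. Selected genes were most frequent on chromosome X (14 of 525, 2.67%) and chromosome 7 (41 of 1554, 2.64%) and least frequent on chromosome 19 (5 of 629, 0.795%). Spans that share a window share reads, which applied to 4 genes, Gp49a with Lilrb4 and Gm17426 with Rptn. Duplicated families lie side by side in the genome, so a cluster often stands for 1 family.

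The largest cluster was the epidermal differentiation complex at chr3:91884439-93275829, where the genes of the outer skin barrier are packed. Of its 54 genes 18 could be compared and 11 were selected, with 210 reads in M1 cells and 497 scaled reads in IL-6-treated cells over the 11. Lor, Sprr2f, Sprr3, Ivl, Lce1l, Lce1m, Flg and Rptn were not above the minimum in M1 cells. They could be compared only by being higher in IL-6-treated cells, so the share selected here says little. Lor, the main protein of the cornified envelope, had 14 and 35.3. Ivl, the envelope's scaffold protein involucrin, had 16 and 35.3. Flg, the filament-bundling protein filaggrin, had 13 and 27.0, with an interval of the ratio from 1.03 to 4.40. The shortest Flg transcript held no read in either library, which gives a log2 ratio of 0 without measuring a change. The relatives of Flg in the fused S100 family gave 36 and 82.0 for Crnn, 18 and 42.6 for Rptn, and 30 and 62.3 for Tchhl1. The small proline-rich gene Sprr2f went from 4 reads to 23.9 scaled reads and Sprr3 from 10 to 31.1. The late cornified envelope genes Lce1l and Lce1m had 5 and 9 reads in M1 cells and 21.8 scaled reads each in IL-6-treated cells. The remaining 7 compared genes of the interval, Lelp1, Sprr2e, Kprp, 2310050C09Rik, Flg2, Hrnr and Tchh, were below the 2-fold threshold but all had log2 ratios above 0, with a median of 0.51. Weakly covered genes were above 0 across the genome too. Over all compared genes the median was 0.29 for 50 to 99 reads over both libraries, 0.18 for 100 to 199 and -0.03 for 200 to 399. Of the genes of the interval below the minimum some were lower in IL-6-treated cells, such as Lce1j and Sprr2d with 7 reads and 5.19 scaled reads each.

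**Figure D3:**
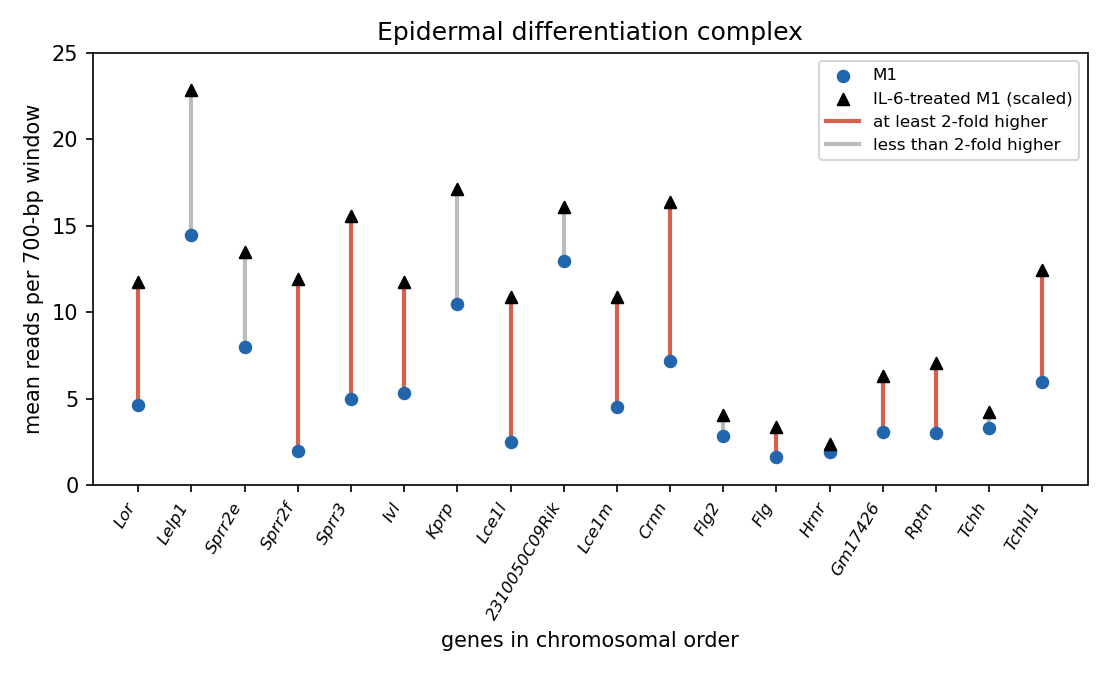
Mean signal per 700-bp window in M1 cells (blue circles, reads) and IL-6-treated M1 cells (black triangles, scaled reads) for the 18 compared genes of the epidermal differentiation complex, in chromosomal order. Red lines join the values of the 11 genes at least 2-fold higher and grey lines those of the other 7, and the triangle lies above the circle also for these 7, while for the 11 the selection fixes it.

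A pair of clusters lay on chromosome 5. At chr5:86916424-87569331, 5 of 10 compared genes were selected. They were the epithelial proteases Tmprss11g (83 reads in M1 cells, 192 scaled reads in IL-6-treated cells), Tmprss11bnl (47 and 101) and Tmprss11e, and the glucuronosyltransferases of detoxification Ugt2b34 (41 and 99.7) and Ugt2b5 (24 and 48.8). Of the 5 other compared genes there, 3 had log2 ratios above 0, and Ythdc1 (-0.53) and Ugt2b36 (-0.13) were below 0. At chr5:88096272-88814652, 5 of 12 compared genes were selected. The milk protein gene Csn1s1 had 21 and 44.6, Csn1s2a had 28 and 59.2, and Csn2, for beta-casein, had 11 and 22.8. Amtn, an enamel protein, had 38 and 87.2, and Smr3a, of the salivary gland, had 8 and 23.9. Csn1s1, Csn2 and Smr3a were above the minimum only in IL-6-treated cells and could be compared only for that reason. Of the 7 other compared genes in this interval, 6 had log2 ratios above 0. The exception was the casein gene Csn1s2b at -0.18.

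Other clusters held hair, defense and reproductive genes. The hair keratin-associated genes at chr11:99464186-99769820 had 6 of 27 compared genes selected, among them Krtap4-7 with 26 reads in M1 cells and 61.3 scaled reads in IL-6-treated cells, Krtap31-1 with 12 and 34.3, and Krtap4-16 with 17 and 42.6. Of the 6, Gm11938, Gm11567, Krtap31-1 and Krtap4-16 were above the minimum only in IL-6-treated cells. They could be compared only for that reason, so the share says little. At chr8:18986314-19064810 lay 3 selected beta-defensins, Defb37 with 10 and 29.1, Defb38 with 12 and 28.0, and Defb39 with 19 and 43.6. None of these 3 was above the minimum in M1 cells, so they could be compared only by being higher in IL-6-treated cells. The oocyte genes Oog4 (39 and 83.1) and Oog2 (13 and 31.1) lay with Gm13023 on chromosome 4. The lipocalins Lcn13 (30 and 64.4) and Lcn14 (28 and 69.6) lay on chromosome 2 in a gene-rich interval with 49 compared genes, whose other 45 had a median log2 ratio of -0.19. The chromosome 7 clusters were mostly olfactory receptors, and 1 of them held Hbb-bh2, of the beta-globin family (10 and 26.0). The cytokine-inducible deubiquitinase genes Dub1 (10 and 37.4) and Dub1a (8 and 28.0) lay in another. Oog2, Gm13023, Hbb-bh2, Dub1 and Dub1a were likewise above the minimum only in IL-6-treated cells.

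The genes next to the selected ones were also examined. The 563 nearest genes that were not selected lay at a median distance of 36.3 kb, and 410 of them could be compared. Their median log2 ratio was 0.35, against 0.03 over all compared genes, and 294 of them (71.7%) were above 0, against 51.7%. These neighbors had themselves to pass the minimum with a ratio below 2, and they were not matched to the other genes for signal. Genes with few reads had medians above 0 across the genome, 0.48 for 30 to 49 reads and 0.29 for 50 to 99 reads over both libraries.

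Of the leukocyte receptor families 4 of 117 compared genes (3.42%) were selected, against 1.69% of all compared genes. The granzymes, Ltb4r1 and Prg3 below are leukocyte genes outside that class, and Gprc6a is outside it too. In a cluster at chr10:51200526-51351237, Lilrb4, an inhibitory receptor of myeloid cells, had 44 reads in M1 cells and 115 scaled reads in IL-6-treated cells, a ratio of 2.60 (1.83 to 3.80). Gp49a, its paired relative, had 23 and 48.8. Its span lies wholly inside that of Lilrb4 and begins at the same base, so all of these reads are also counted for Lilrb4. Gprc6a, an amino acid receptor beside them, had 52 and 126. Klra2, an NK cell receptor of the Ly49 family, had 33 and 87.2, a ratio of 2.62 (1.75 to 4.08). On chromosome 14 the leukotriene receptor gene Ltb4r1 had 30 and 65.4, and the granzymes Gzmd, Gzmg and Gzmn had 21, 23 and 27 reads in M1 cells and 54.0, 46.7 and 57.1 scaled reads in IL-6-treated cells. Gzmd was above the minimum only in IL-6-treated cells. These genes form a cluster, and of the 14 other compared genes there 9 had log2 ratios above 0. Among those below 0 was the granule protease gene Ctsg, with 141 and 75.8. The eosinophil granule gene Prg3 had 36 and 79.9.

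Of chemokine, interleukin and interferon genes, 7 of 133 compared genes (5.26%) were selected, against 1.69% of all. Over the whole table they were 7 of 159, beside 313 of all 22575 genes. Except for Cxcr7, all 7 were above the minimum only in IL-6-treated cells. They could be compared only for that reason, so the share says little. Cxcr7, an atypical chemokine receptor, had 24 reads in M1 cells and 59.2 scaled reads in IL-6-treated cells. Il1f9, an epithelial member of the IL-1 family, had 20 and 42.6. The other 5 were chosen for mention after their values were seen. Ccl2, which attracts monocytes, had 10 and 27.0, and Ccl20, which attracts CCR6-bearing lymphocytes, had 11 and 22.8. Cxcl16 had 9 and 26.0, Ifnk had 11 and 23.9, and Il28b had 7 and 23.9. Each of these 5 rests on fewer than 30 reads per library.

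Lists of 15 interferon-stimulated genes and 17 genes of the IL-6 and STAT3 pathway contributed 0 of the 313, and at a share of 1.69% lists this short can hold none. Of the pathway genes 15 could be compared, with a median log2 ratio of -0.78, and 5 were at least 2-fold lower. Junb, an early target of STAT3, had 527 reads in M1 cells and 127 scaled reads in IL-6-treated cells. Il6st, which encodes the signaling chain gp130, had 338 and 324. The 15 interferon-stimulated genes had a median log2 ratio of -0.13. Markers of other blood cells were likewise not among the selected genes, with medians of 0.32 over 5 T cell genes, 0.39 over 5 B cell genes and 0.29 over 5 erythroid genes.

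A few more genes were picked for mention after their values were seen. They stand for no list, and no share of any group is read from them. Genes for hormones and peptides among them were Ins2 (15 reads in M1 cells, 31.1 scaled reads in IL-6-treated cells), the glucagon gene Gcg (14 and 37.4), the enkephalin precursor Penk (9 and 27.0), Kiss1 (16 and 36.3) and Nppb (7 and 22.8). Genes for transcription factors were Neurog1 of sensory neurons (9 and 34.3), Nkx2-5 of the heart (17 and 36.3), Sox21 (17 and 38.4), Dlx3 of skin and placenta (26 and 56.1) and Foxi3 of the ear and teeth (28 and 65.4). None of them had 100 reads over both libraries.

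The promoters of the selected genes were poor in CpG, a feature that the selection did not use. The observed number of CpG dinucleotides over the number expected from base composition had a median of 0.18 in promoters of 300 bp, which run from 250 bases before the start site to 50 bases after it. It was 0.64 over the compared genes and 0.77 over genes at least 2-fold lower. A value above 0.6 was found in 35 of 313 selected genes (11.2%), in 53.6% of the compared genes and in 71.6% of the lower ones. No CpG at all was found in 43 selected promoters (13.7%), against 2.50% of the compared genes. Examples at the extremes were Krtap4-16 at 0, Lilrb4 at 0.0893 and Csn2 at 0.178 on one side, and Neurog1 at 0.876, Ints12 at 0.923 and B3galnt1 at 1.29 on the other. The Lilrb4 value belongs to the transcript whose coding span begins at the same base as that of Gp49a.

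**Figure D4:**
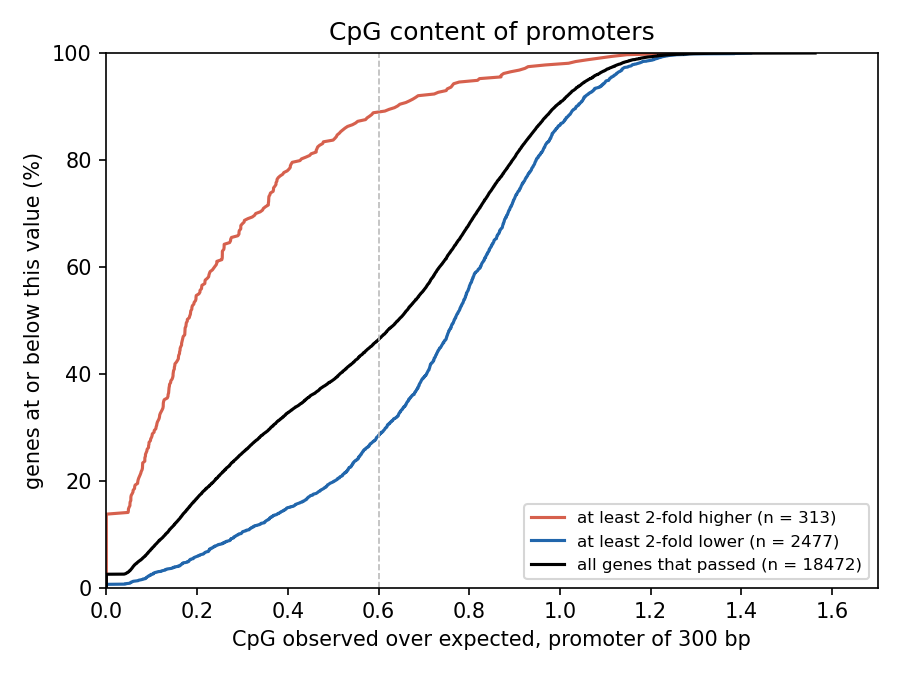
Cumulative share of genes (vertical, percent) by CpG observed over expected in the 300-bp promoter (horizontal) for the 313 genes at least 2-fold higher (red), the 2477 genes at least 2-fold lower (blue) and all 18472 genes compared (black). Beyond the dashed line at 0.6 lie 11.2% of the red, 71.6% of the blue and 53.6% of all compared genes.

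The difference was also seen within broad classes of span length, which do not match the genes for depth. Among spans of at most 5 windows and under 100 reads, 28 of 187 selected genes (15.0%) and 429 of 1528 other genes (28.1%) were above 0.6, with M1 medians of 4.5 and 10.0 reads per window. Among spans of 6 or more windows the shares were 5.60% of 125 and 56.6% of 15313, with M1 medians of 1.88 and 8.67 reads per window. A start site annotated at the first coding base can mean that the true start is not known, which applied to 70 selected genes (22.4%) and to 7.67% of the compared genes. Without such genes, 30 of 243 selected genes (12.3%) and 55.9% of the compared genes were above 0.6.

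The sequence TATAAA was present on either strand in 89 selected promoters (28.4%), against 10.5% of the compared promoters. Within short spans of low depth the shares were 28.9% and 17.9%. The GC content of the promoters had a median of 46.7%, against 58.0% over the compared genes. The word holds only A and T, and whether base composition accounts for the difference was not tested. Its place in the promoter was not used. Words bound by factors of interest in these cells were counted in the same way. The Meis word TGACAG was in 62 (19.8%, against 17.6%) and the ETS word GAGGAAGT, of the kind PU.1 binds, was in 7 (2.24%, against 2.77%). The C/EBP word TTGCGCAA was in 1 (0.319%, against 0.271%), the STAT word TTCCNGGAA in 2 (0.639%, against 1.15%) and the cyclic AMP response word TGACGTCA in 4 (1.28%, against 2.55%). The last 2 were thus less frequent than in the compared promoters, from few matches. A match is only a match of letters in this window, and nothing about binding is read from it.

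Many of the selected genes had few exons. The coding sequence lay in a single exon in 107 selected genes (34.2%), against 7.36% of the compared genes, and the median number of coding exons was 2 against 7. The windows held the start site in 189 selected genes (60.4%), against 55.0%. The GC content of the spans had a median of 44.1%, against 46.3% over the compared genes and 49.7% over the lower ones. It was lower within length classes too, at 46.9% against 52.8% of unselected genes for spans of at most 5 windows and at 40.4% against 45.4% for longer ones.

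For spans of 4 windows or fewer the individual windows could often be recovered from the sum and the SD. This was possible in both libraries for 103 of 155 such genes, giving 227 windows per library. In M1 cells 0 of these windows were above 21, and in IL-6-treated cells 39 windows in 34 genes were. The authors called hypersensitive sites by a read count above 21. The length it was counted over is not given, so it may not match these windows. The strongest window of a gene had a median of 8 reads in M1 cells and 17.6 scaled reads in IL-6-treated cells, and it was higher in IL-6-treated cells in 103 of 103 genes. Since the genes were selected on the sum of the same windows, this direction was nearly fixed by the choice. The 0 windows above 21 in M1 cells were largely fixed too. Of the 313 genes, 219 had an M1 sum of at most 21, so no M1 window of theirs could be above it. No gain of hypersensitive sites is read from these counts.

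**Figure D5:**
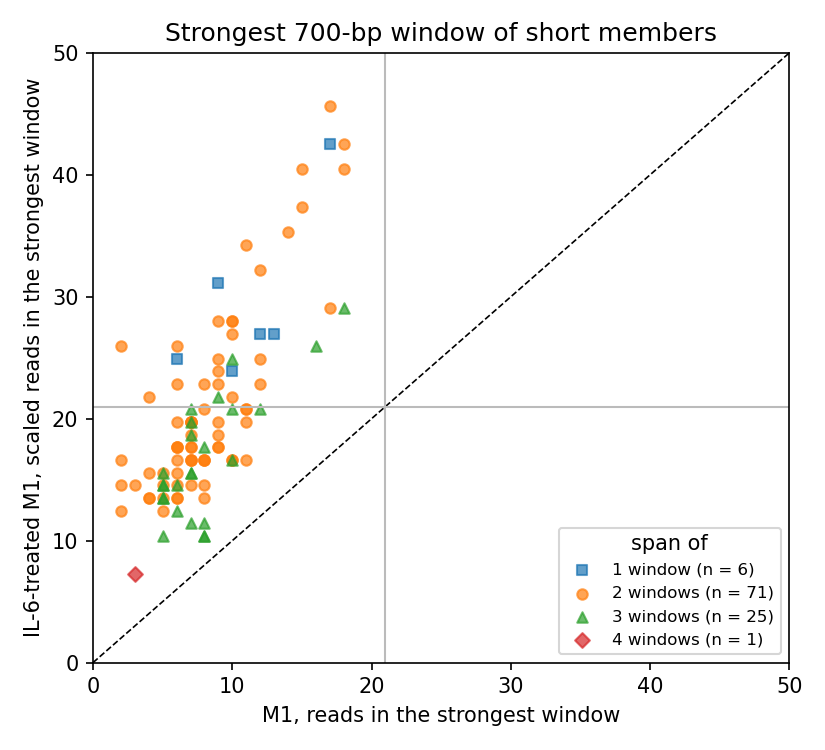
Reads in the strongest 700-bp window of M1 cells (horizontal) and scaled reads in the strongest window of IL-6-treated M1 cells (vertical) for the 103 selected genes with spans of 4 windows or fewer whose windows could be recovered, with marker shape and color by span length. Grey lines mark 21 in each library and the dashed line marks equal values. All points lie left of the vertical line, which the selection largely fixes, and those of 34 genes lie above the horizontal one.

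In some genes 1 window held most of the reads, and in others the windows were more even. Window values were recovered by size and without position. A given window can therefore not be followed from 1 library to the other. Gm5089 had windows of 17 and 7 reads in M1 cells and of 45.7 and 17.6 scaled reads in IL-6-treated cells, which included the highest window of the set. Krtap31-1 had 10 and 2 reads against 28.0 and 6.23 scaled reads. In Neurog1 the windows had 6 and 3 reads against 26.0 and 8.31 scaled reads, and in Cxcr7 15 and 9 against 37.4 and 21.8. These are spans in which 1 window held most of the reads in both libraries. Ins2 was even, with 8 and 7 reads against 16.6 and 14.5 scaled reads. Ccl2 had 5, 4 and 1 reads against 15.6, 8.31 and 3.11 scaled reads. No Ccl2 window passed 21 in either library.

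For longer spans the mean and SD set bounds on the strongest window. In IL-6-treated cells 42 of the 313 genes surely held a window above 21, 219 surely held none and 52 could hold one. In M1 cells 0 surely held one and 312 surely held none. These M1 counts follow largely from the selection, since most of the genes had an M1 sum of at most 21. For comparison, 24.8% of all compared genes surely held such a window in M1 cells and 13.1% did in IL-6-treated cells. For most of the 313 genes the higher sum was thus spread over windows that each stayed at or below 21.

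The count of 313 depends on the scaling between the libraries. Scaled on single-window spans, a choice made after the data were seen, the log2 ratios of all genes shifted up by 1.62 and 16418 of 20635 compared genes were at least 2-fold higher, the 313 among them. The ratios above are therefore to be read relative to the median of all compared genes, which was 0.03 on the log2 scale with the authors' scaling.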

How the data were processed

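M1 cells without and with IL-6 gave 1 DHS-seq library each. Nuclei were digested with DNase I by the authors, who sequenced small fragments and mapped trimmed reads on NCBIM37 with BWA (version not given in the sources used here). The signal that the authors deposited from Seqmonk is, for every transcript, a mean and an SD across the 700-bp windows its coding span touches. The methods describe single-read sequencing and a figure legend paired-end sequencing. An unnamed scaling by the authors made 1 IL-6 read worth 1.03816.

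Reads were recovered as mean times windows, and all 55390 rows on chromosomes 1 to 19 and X gave whole reads within 0.05. For each gene the row with the most windows was used. Sums received 0.5 before ratios, whose intervals are 95% Clopper-Pearson intervals. A count of 0 allows up to 3 reads. No test across libraries was made, since each condition has 1 library. All 22575 genes were matched to GENCODE M1, and start sites and sequences were read from NCBIM37. Sequence words were searched on both strands, a promoter was counted once per word, and words could overlap each other.

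The 313 genes, the gene lists, name classes and motifs were chosen with earlier results of these data known. The named genes are those with at least 100 reads when both libraries are added, the 10 largest ratios among genes with at least 50 reads, the 2 genes with most reads in each class of 3 or more, all genes in clusters of 3 or more, genes on the lists, 3 genes on each side of the threshold and the gene with most windows, which gave 134 selected genes. Others are said to have been chosen after their values were seen. Alternatives covered the scaling, the number added, the minimum sum, the fold, the row per gene, shared windows and the cluster gap. The read recovery and the ratios were tested on simulated data. The scripts ran in Python 3.11.15. Tables were handled with pandas 2.3.3 and numpy 2.4.6, intervals came from scipy 1.17.1, the genome was read with pysam 0.24.0, and matplotlib 3.10.9 drew the figures.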

Additional observations from a re-analysis of the deposited data

How the results depend on the processing

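The number of genes at least 2-fold higher was 313, with a median of 5 windows, 35 olfactory receptors, 21 clusters of 3 or more and 11.2% CpG-rich promoters. It was 254 on reads without the authors' scaling, 373 when scaled on totals, 307 when scaled on the median of ratios over genes, 396 with the shortest transcript of each gene, and 301 with genes that share a window merged. With the shortest transcript the CpG-rich share was 17.9%. Adding 5 to each sum gave 161 genes, 19 olfactory receptors and 7 clusters. A minimum sum of 50 gave 97 genes, a median of 9 windows, 2 olfactory receptors and 3 clusters. A fold of 1.5 gave 2000 genes, a median of 14 windows, 89 olfactory receptors, 207 clusters and 20.7% CpG-rich promoters. The scaling on 186 single windows, chosen after seeing the data, gave 16418 genes, a median of 24 windows, 857 olfactory receptors, 506 clusters and 43.9% CpG-rich promoters. A cluster gap of 100 kb left 8 clusters and one of 1 Mb gave 23. The cause of these differences was not tested beyond the change each alternative makes. Of the log2 ratios of the 134 genes named by rule, each under 5 alternatives, 664 moved by less than their counting interval. Of these alternatives 3 are scalings that move every gene alike, by -0.05 to 0.04, so they could not change a sign, and the single-window scaling was left out. The 6 that moved further did so with the shortest transcript, to 3.33 for AW551984, 0.48 for Rps6ka6, 0.26 for Zfp57, 0.52 for Cyp2a5 and 0 for Gm10326 and Flg. The shortest transcripts of Gm10326 and Flg held no read in either library, so their 0 does not measure a change. No paired analysis was possible because only 1 library was made per condition, and for the same reason no library could be left out. Depth limits single genes most, since only 160 of the 313 genes had at least 50 reads over both libraries.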
